A study of Homo sapiens with 12 samples.

Results

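The effect of 4-thiouridine (4SU) on the transcriptome of cells that had also been given a clickable electrophilic purine (CEP) was examined in 6 of the 12 RNA-Seq libraries of the study. Members were chosen by treatment alone, as the 3 libraries treated with CEP and 4SU together (CEP+4SU) and the 3 treated with CEP (CEP). Both groups were HEK293T cells, a human embryonic kidney line, and the study used only this line for RNA-Seq. CEP cells received the purine probe AHL-Pu-1, which reacts with cysteines of proteins, at 25 µM for 1 h, and CEP+4SU cells received in addition 4SU at 100 µM for 16 h. The sample labels print the CEP dose in mM, whereas the design text of the series and the paper print µM. The protocol on the labels is the same for every library and includes irradiation at 312 nm with 1 J/cm2, and nothing says if cells that had no 4SU were spared it. The other 6 libraries, 3 given only vehicle (DMSO) and 3 given 4SU alone, carry the same 4SU contrast without CEP and share no library with the comparison described here. Polyadenylated RNA was sequenced, and the design text calls the 3 replicates independent without giving a day or batch for each. The p-values therefore measure the spread between replicate libraries, pooled over all 12 libraries, which may in part be technical.

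4SU is a uridine analog that cells take up, phosphorylate and build into new RNA in place of uridine. Its sulfur absorbs long-wave UV light, which lets labelled RNA be crosslinked to bound protein, and the same property is used to follow new transcripts. High doses over long times are known to disturb ribosomal RNA synthesis and nucleoli. Ribosomal proteins, snoRNA host genes and stress pathways are among the lists followed here by name. These lists were written with earlier results of these data known.

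In CEP-treated cells, 4SU lowered 1 gene past the threshold, RPL22L1, which encodes a paralog of the ribosomal protein eL22. Its log2 fold change was -1.01 ± 0.12 (SE, n = 3 each), and all 3 CEP+4SU libraries lay below all 3 CEP libraries. The genes next in order, among them UCP2, LRBA and HMOX1 below and ZDHHC11 and SNHG1 above, differed by less and did not pass. Most of the 24 genes named by this order had the same sign of difference in the libraries without CEP.

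Each gene was tested with edgeR's quasi-likelihood test on the deposited counts, with a mean for each of the 4 groups and an adjusted p (Benjamini-Hochberg) under 0.05 as the threshold. Of 17729 genes tested, 1 passed (0.00564%), and the second smallest adjusted p was 0.109. At an unadjusted p under 0.05 there were 1588 genes (8.96%), of which 731 (4.12%) were higher and 857 (4.83%) lower with 4SU. The median absolute log2 fold change was 0.13, and the log2 fold change was at least 1 in size for 580 genes. In CPM, the counts scaled to 1000000 per library after edgeR's TMM normalization, 501 of these had a mean under 1 CPM, 76 had 1 to 10 CPM, 3 had 10 to 50 CPM and 0 had more. DESeq2 called 75 genes at this threshold, and edgeR called 204 once the trend of each library on gene GC content was removed, as described further on. By edgeR it gave 2 genes without CEP replicate 1, 2 without CEP replicate 2, 6 without CEP+4SU replicate 2 and 2 without CEP+4SU replicate 3.

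**Figure D1:**
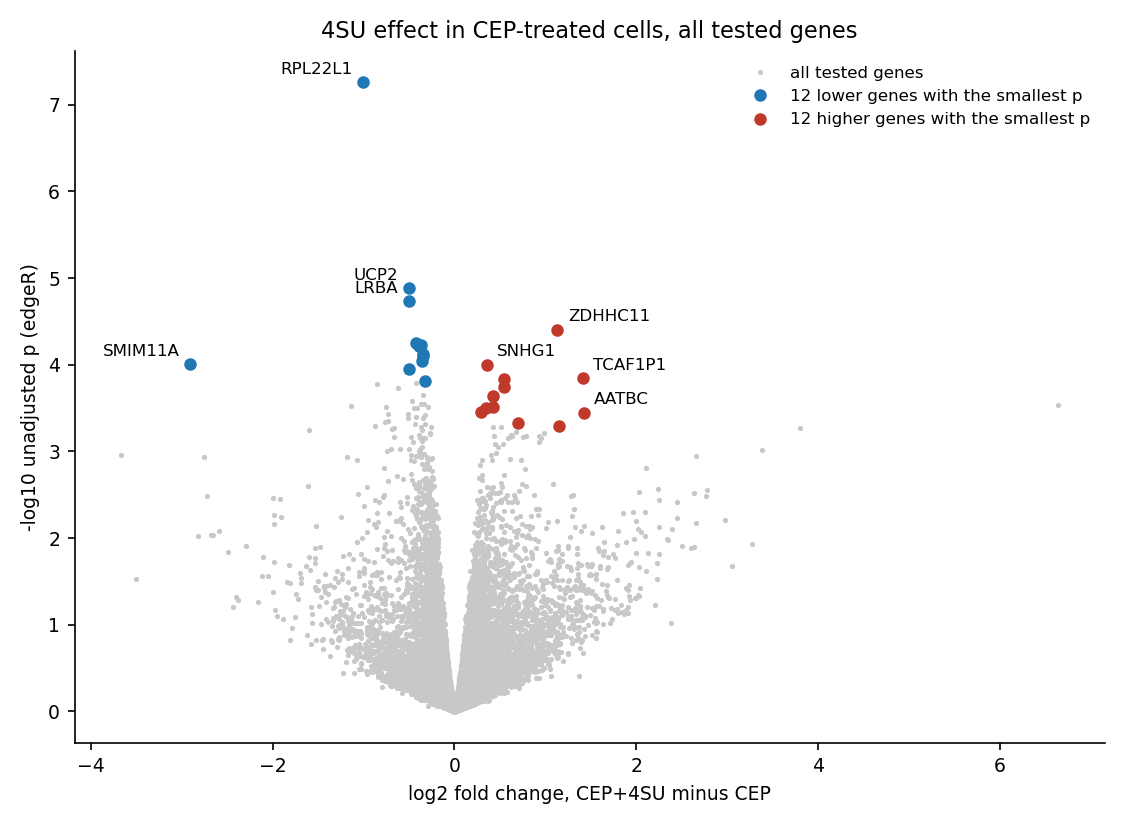
The log2 fold change of each of 17729 tested genes (CEP+4SU minus CEP, x axis) is plotted against -log10 of its unadjusted edgeR p (y axis), with the 12 lower and 12 higher genes of smallest p in colour. RPL22L1 at -1.01 stands above all others, and the point furthest right, HIST1H1D, had a mean of 0 CPM with CEP, so that its fitted value depends on the prior count.

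RPL22L1 and RPL22 encode the 2 members of the eL22 family of ribosomal proteins, small proteins of the large ribosomal subunit, and RPL22 is known to restrain RPL22L1 expression. RPL22L1 (ENSG00000163584, chr3:170864875-170870483) was measured at 46.2, 51.8 and 61.0 CPM in the CEP libraries and at 27.6, 25.8 and 25.7 CPM in the CEP+4SU libraries. All CEP+4SU libraries lay below all CEP libraries, with means of 26.4 ± 1.08 and 53.0 ± 7.47 CPM (SD, n = 3 each). The log2 fold change was -1.01 (SE 0.12, adjusted p = 0.000974 by edgeR). The counts behind these levels were 868, 879 and 1286 with CEP and 514, 538 and 512 with both compounds.

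The same gene gave 53.9, 48.5 and 47.9 CPM in the DMSO libraries and 31.1, 24.2 and 31.8 CPM in the libraries with 4SU alone. These groups did not overlap either, and the log2 fold change was -0.79 (SE 0.12, adjusted p = 0.0336 by edgeR). This call without CEP was lost, with 0 genes called, with upper-quartile factors, with library size alone, by limma with either pseudocount and when any 1 of its 6 libraries was left out. The difference between the effects with and without CEP was -0.22 (SE 0.16, unadjusted p = 0.192), which did not pass. RPL22L1 was called in 18 of 19 alternative settings at the threshold of 0.05, the exception being limma on log2(FPKM + 1), where the adjusted p was 0.0533. Its log2 fold change lay between -1.11 and -0.90 when single libraries were left out.

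RPL22 (chr1:6185020-6209389) gave 155.7, 107.2 and 204.3 CPM with CEP and 178.0, 185.7 and 172.7 CPM with both. The CEP libraries spanned the CEP+4SU libraries, and the log2 fold change of 0.20 (SE 0.15, adjusted p = 0.762 by edgeR) did not pass. Summed over 23 genes, RPL22 and its named pseudogenes gave 182 ± 58.5 CPM with CEP and 212 ± 12.5 CPM with both (SD, n = 3).

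Levels of the pair were compared per length in the deposited FPKM (fragments per kilobase of gene, scaled to library size). RPL22L1 had 22.5 ± 3.21 FPKM with CEP and 11.2 ± 0.471 FPKM with both, and RPL22 had 32.9 ± 10.3 and 37.9 ± 1.38 FPKM. The log2 ratio of RPL22L1 to RPL22 ranged from -0.74 to -0.04 with CEP and from -1.84 to -1.68 with both, so the groups did not overlap. It ranged from -1.06 to -0.58 in DMSO and from -1.66 to -1.29 with 4SU alone. The difference between CEP+4SU and CEP was -1.25 (exact permutation test, two-sided, p = 0.1, the smallest value that 3 libraries against 3 allow). RPL22L1 had been picked for its p in these same libraries, so this value is a description and adds no evidence.

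**Figure D2:**
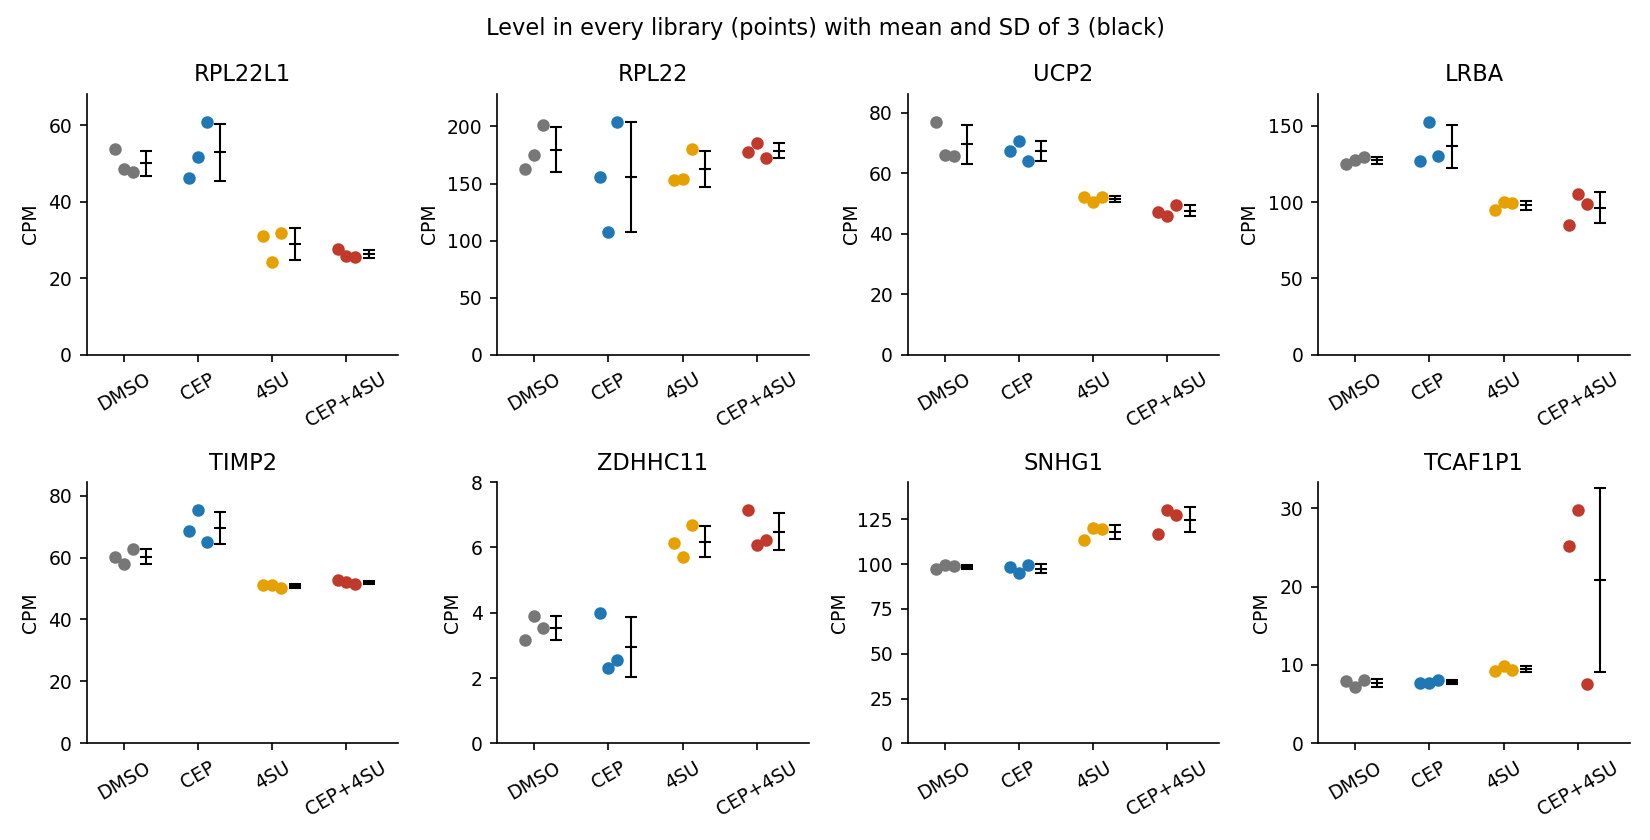
CPM of 8 genes (y axes, from 0) in every library of the 4 groups (points), with the mean and SD of 3 libraries in black beside them. RPL22L1, UCP2, LRBA and TIMP2 lie lower with 4SU than without it in both pairs of groups, RPL22 overlaps, and TCAF1P1 is high in 2 of 3 CEP+4SU libraries.

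Beyond RPL22L1, the 11 lower genes with the smallest p and a mean of at least 1 CPM had adjusted p from 0.109 to 0.148 by edgeR, and none passed. Each had an adjusted p of 0.771 when edgeR was fitted to only the 6 libraries of the comparison. UCP2 (chr11:73974667-73983307), a carrier of the mitochondrial inner membrane, gave 67.4, 70.8 and 64.1 CPM with CEP and 47.2, 46.0 and 49.5 CPM with both. LRBA (chr4:150264531-151015727), an anchor protein of vesicle traffic, gave 126.8, 152.8 and 130.3 CPM with CEP and 85.0, 105.1 and 99.0 CPM with both. The groups did not overlap for either gene, as for 6.05% of all tested genes in this direction, and both log2 fold changes were -0.50 (SE 0.09, adjusted p = 0.109 by edgeR).

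HMOX1, the heme oxygenase that is a classical target of NRF2, gave 86.0, 71.0 and 85.0 CPM with CEP and 63.5, 51.2 and 56.7 CPM with both. Its groups did not overlap, and its log2 fold change was -0.50 (SE 0.10, adjusted p = 0.148 by edgeR). The log2 fold change was -0.42 for TIMP2, an inhibitor of metalloproteinases, -0.35 for NID1, the basement membrane protein nidogen-1, and -0.39 for MXRA7. It was -0.36 for PLS3, which bundles actin, and -0.35 for AMOT, the angiomotin that binds YAP. For IARS, the cytoplasmic isoleucyl-tRNA synthetase, it was -0.37, and for EIF3L, a subunit of translation initiation factor eIF3, it was -0.32. In each of these 7 genes all CEP+4SU libraries lay below all CEP libraries, as for 6.05% of all tested genes. The genes were chosen for their p in these libraries, so this separation is a description.

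SMIM11A, a small membrane protein, was uneven among libraries. It gave 17.1, 1.41 and 27.2 CPM with CEP and 3.22, 1.92 and 1.00 CPM with both, so that its log2 fold change of -2.91 rested on CEP replicates 1 and 3 and the groups overlapped. The 3 DMSO libraries lay between 1.18 and 1.45 CPM. The annotation holds a near copy, SMIM11B, with which reads can be shared, and the sum of both gave 15.3 ± 13.0 CPM with CEP and 2.15 ± 1.08 CPM with both (SD, n = 3).

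Among the 12 higher genes with the smallest p, adjusted p ran from 0.148 to 0.160 by edgeR. It was 0.771 for each when edgeR was fitted to only the 6 libraries of the comparison. ZDHHC11 (chr5:795606-850986), of the family of protein palmitoyltransferases, gave 3.99, 2.30 and 2.56 CPM with CEP and 7.15, 6.09 and 6.23 CPM with both. Its groups did not overlap, as for 5.61% of all tested genes in this direction, and its log2 fold change was 1.13 (SE 0.21, adjusted p = 0.148 by edgeR). The sum with its paralog ZDHHC11B was 5.94 ± 1.48 CPM with CEP and 11.1 ± 0.326 CPM with both (SD, n = 3).

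SNHG1 (chr11:62851988-62855914), a noncoding RNA whose introns carry snoRNAs, gave 98.3, 94.8 and 99.4 CPM with CEP and 117.0, 130.2 and 127.2 CPM with both. Its groups did not overlap, and its log2 fold change was 0.36 (SE 0.07, adjusted p = 0.148 by edgeR). Of the same class, SNHG11 had a log2 fold change of 0.55 and SNHG21 of 1.15. Among protein-coding genes the log2 fold change was 0.54 for SLC24A1, a sodium, calcium and potassium exchanger, 0.43 for PURB, which binds purine-rich single strands, and 0.43 for KIF5A, a kinesin heavy chain. It was 0.35 for MORC2, an ATPase of chromatin silencing, 0.29 for THRAP3, a protein of mRNA processing, and 0.69 for BTNL9. The antisense RNA AATBC, at 0.923 ± 0.190 CPM with CEP and 2.49 ± 0.637 CPM with both (SD, n = 3), had a log2 fold change of 1.42. In these 9 genes the groups did not overlap, as for 5.61% of all tested genes in this direction. They too were chosen for their p in these libraries, so the separation is a description.

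TCAF1P1, an unprocessed pseudogene of TCAF1, gave 7.72, 7.66 and 8.07 CPM with CEP and 25.2, 29.8 and 7.53 CPM with both. Its groups overlapped, since CEP+4SU replicate 3 lay with the CEP libraries. The sum of TCAF1 and TCAF1P1 was 100.4 ± 7.46 CPM with CEP and 126.6 ± 20.9 CPM with both (SD, n = 3).

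The 24 genes were chosen by their p in CEP-treated cells. The libraries without CEP entered that p through the shared filter and dispersion, so their values for these genes are a description. There, 11 of the 12 lower genes had the same sign with 4SU against DMSO, beside 61.0% of all tested genes. Of these 11, 9 had an unadjusted p under 0.05, beside 6.50% of all tested genes with such a p and either sign. The exception in sign was SMIM11A, at 0.51 (unadjusted p = 0.468). Of the 12 higher genes 9 had the same sign, 7 of them with an unadjusted p under 0.05. SLC24A1 at -0.03, SNHG11 at -0.05 and SNHG21 at -0.13 had the opposite sign, with unadjusted p from 0.644 to 0.829. The difference between the effects with and without CEP had an unadjusted p under 0.05 for 6 of the 24 genes, beside 2.63% of all tested genes. These were SMIM11A, MXRA7, TCAF1P1, SLC24A1, SNHG11 and SNHG21, and 0 passed the threshold. The 24 genes were picked on the CEP and CEP+4SU libraries, which also enter this difference. The count of 6 therefore cannot show that effects differ with CEP.

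Across all genes the interaction of 4SU with CEP passed for 0 of 17729 genes by edgeR and for 0 by DESeq2, with 467 (2.63%) and 535 genes at an unadjusted p under 0.05. Over all tested genes, the log2 fold changes with and without CEP had the same sign for 61.0% and a Pearson r of 0.15 across genes. For the 5202 genes with a mean of at least 50 CPM, r was 0.51. Of the 1588 genes with an unadjusted p under 0.05 in CEP-treated cells, 1288 (81.1%) had the same sign without CEP and 334 (21.0%) had the same sign and an unadjusted p under 0.05 there too. These shares were 84.0% and 25.9% for the 857 lower genes, and 77.7% and 15.3% for the 731 higher genes. Genes are not independent replicates, and both contrasts take their spread from 1 model, so these values are descriptions.

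**Figure D3:**
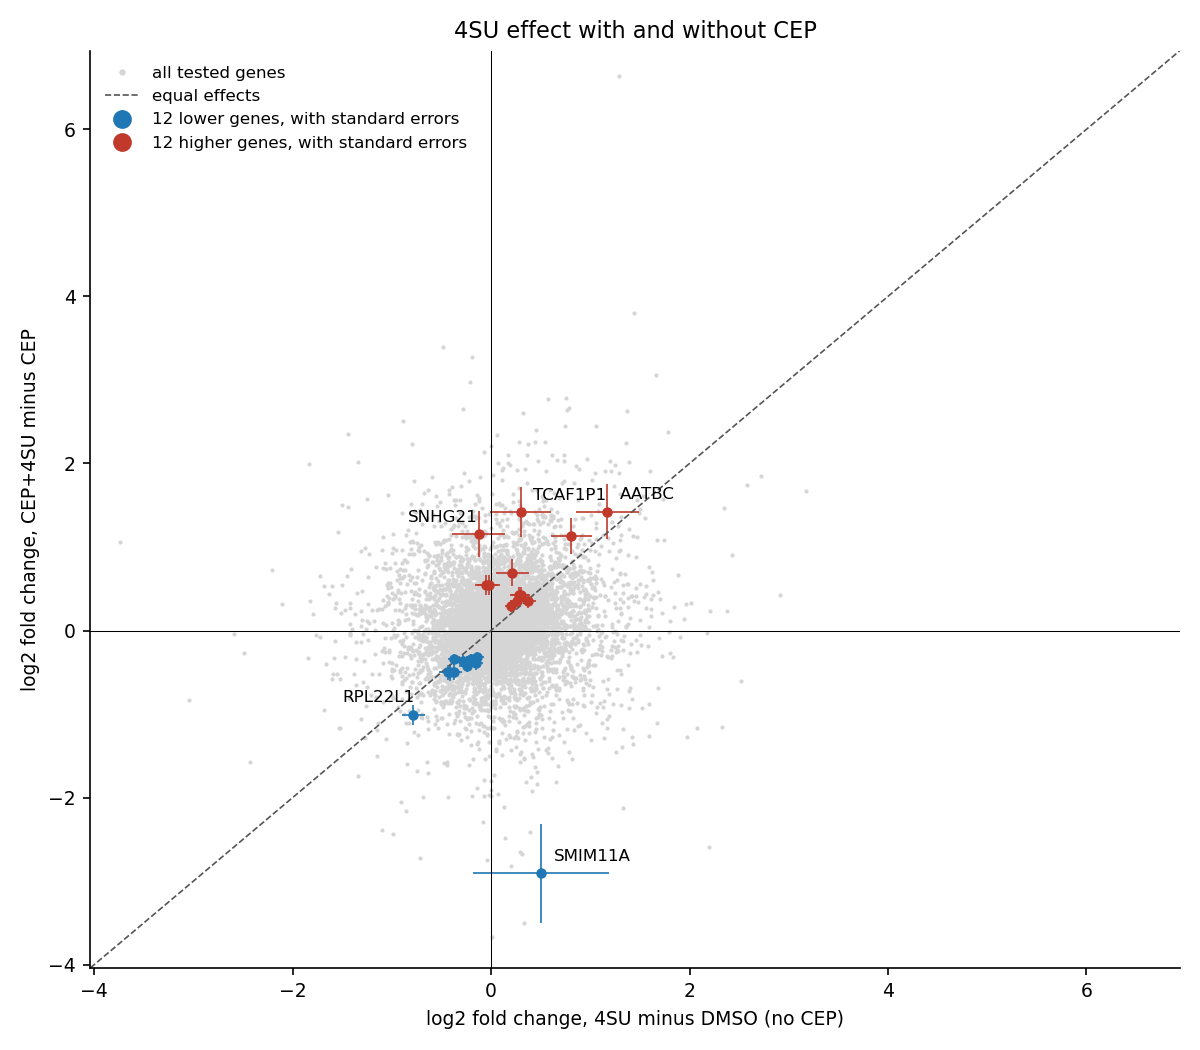
The log2 fold change for 4SU in CEP-treated cells (y axis) is plotted against that for 4SU alone (x axis) for all tested genes (grey), with standard errors for the 12 lower (blue) and 12 higher (red) genes of smallest p on the y axis. RPL22L1 lies near the line of equal effects, at -0.79 and -1.01, and SMIM11A lies at 0.51 and -2.91.

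For a view by function, 19 lists with 520 entries (513 different genes) were followed, of which 502 entries were tested. The lists were written with earlier results of these data known, so counts within them are descriptions. RPL22L1 was the only member of any list that passed, so the other members are given by values and unadjusted p. For each list the median log2 fold change is set beside -0.0002, the median over all tested genes. Counts at an unadjusted p under 0.05 stand beside 4.12% higher and 4.83% lower of all tested genes. Counts without overlap stand beside 5.61% higher and 6.05% lower. Members beyond the pair with the highest CPM of a list were chosen after their values were seen.

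Ribosomal proteins, which build both subunits, had a median of -0.06 over 85 genes, with 34 above and 51 below 0. An unadjusted p under 0.05 was found for 14 of them, 13 lower and 1 higher, beside 4.83% and 4.12% of all tested genes. Without both replicate 2 libraries the median was -0.12. By library, the median member lay at -0.20 to 0.18 log2 CPM from its mean over the 6 libraries with CEP. With both it lay at -0.08 to 0.06, so the groups overlapped. RPS2 gave 3706, 2840 and 3332 CPM with CEP and 3628, 2993 and 3273 CPM with both. RPS4X, at 2548, 2716 and 2606 CPM with CEP, gave 2246, 2319 and 2360 CPM with both. The groups overlapped for RPS2 and did not for RPS4X, whose log2 fold change was -0.18 (unadjusted p = 0.0106 by edgeR). RPL4 had -0.29, RPL5 -0.19 and RPL3 -0.18, all without overlap, and the higher gene was RPL36A at 0.52. Set against these, RPL22L1 had the largest difference of the 85 genes. For 4SU alone the median of the list was -0.13, with 80 genes below 0. Genes of ribosome biogenesis and RNA polymerase I, on which the making of ribosomal RNA depends, had a median of 0.004 over 39 genes, with 3 higher and 0 lower at an unadjusted p under 0.05. Their most abundant members NPM1 and NCL, both abundant nucleolar proteins, had log2 fold changes of -0.13 and 0.01.

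Host genes of snoRNAs, noncoding transcripts whose introns release the small RNAs that guide modification of ribosomal RNA, had a median of 0.26 over 14 genes, which was 0.09 without both replicate 2 libraries. Of these, 11 were above 0, and 6 were higher and 0 lower at an unadjusted p under 0.05, beside 4.12% and 4.83% of all tested genes. GAS5 gave 132.0, 145.5 and 160.3 CPM with CEP and 172.0, 176.9 and 184.4 CPM with both, without overlap, and its log2 fold change was 0.28 (SE 0.08, unadjusted p = 0.00143 by edgeR). SNHG29 (LRRC75A-AS1 in the files) had -0.08, with overlap. SNHG32 (C6orf48) had 0.59, SNHG7 0.51, ZFAS1 0.45 and SNHG12 0.29. The groups did not overlap in 4 of the 14 genes, all higher, beside 5.61% of all tested genes in this direction. By library, the median member lay at -0.24 to 0.086 log2 CPM from its mean over the 6 libraries with CEP. With both it lay at 0.091 to 0.14. For 4SU alone the median was 0.08, with 4 higher and 0 lower at an unadjusted p under 0.05, beside 2.78% and 3.72% of all tested genes.

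Genes of cholesterol synthesis and SREBP, the factor that drives them, had a median of -0.15 over 23 genes. Of these, 18 were below 0, and 10 were lower and 0 higher at an unadjusted p under 0.05, beside 4.83% of all tested genes that were lower at this p. SREBF2, which encodes the sterol-regulated factor itself, gave 154.0, 139.8 and 125.4 CPM with CEP and 113.2, 112.1 and 114.3 CPM with both. Its groups did not overlap, and its log2 fold change was -0.30 (SE 0.09, unadjusted p = 0.0032 by edgeR). The log2 fold change was -0.34 for FDFT1, the squalene synthase, -0.28 for SQLE, which oxidises squalene, and -0.35 for IDI1, which isomerises the isoprene unit. It was -0.44 for INSIG1, which holds back SREBP processing. The groups did not overlap in 8 genes of the list, all lower, beside 6.05% of all tested genes in this direction. In each CEP library the median member lay above its mean over the 6 libraries, by 0.07 to 0.16 log2 CPM, and in each CEP+4SU library it lay below, at -0.14 to -0.06. For 4SU alone the median of the list was -0.10. At an unadjusted p under 0.05 there, 3 genes were lower and 0 higher, beside 3.72% and 2.78% of all tested genes.

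NRF2 targets, which protect against electrophiles and oxidants, had a median of -0.08 over 21 genes, with 15 below 0. At an unadjusted p under 0.05, 3 were lower and 0 higher, beside 4.83% and 4.12% of all tested genes. Besides HMOX1 the 3 lower genes included TALDO1 at -0.29, of the pentose phosphate pathway. The most abundant members, the peroxiredoxin PRDX1 and the ferritin light chain FTL, had -0.08 and -0.10 with overlap. The groups did not overlap in 5 of the 21 genes, all lower, beside 6.05% of all tested genes. By library, the median member lay at 0.02 to 0.11 log2 CPM from its mean over the 6 libraries with CEP. With both it lay at -0.03 to -0.02.

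Tubulins had a median of -0.14 over 14 genes. At an unadjusted p under 0.05, 3 were lower and 0 higher, beside 4.83% and 4.12% of all tested genes. By library, the median tubulin lay at -0.12 to 0.31 log2 CPM from its mean over the 6 libraries with CEP. With both it lay at -0.26 to 0.07, so the groups overlapped. The most abundant, TUBB and TUBA1B, had -0.12 and -0.30 with overlap, and TUBA1A gave 117.1, 117.3 and 95.4 CPM with CEP and 90.7, 68.1 and 82.8 CPM with both. TUBA1A did not overlap and had -0.45 (SE 0.12, unadjusted p = 0.00129 by edgeR). Members of this family share sequence, so counts can be split among them. Immediate early genes, which respond within minutes to signals, had a median of -0.16 over 28 genes with 23 below 0. Only 1 was higher and 1 lower at an unadjusted p under 0.05. By library, their median member lay at -0.07 to 0.16 with CEP and at -0.19 to 0.07 with both, again with overlap. JUN and MYC, the most abundant, had -0.16 and -0.15 with overlap.

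Lists for responses to damaged or foreign RNA had medians from -0.07 to 0.07. Their counts at an unadjusted p under 0.05 stand beside 4.12% higher and 4.83% lower of all tested genes. RNA sensing and interferon genes had a median of 0.07 over 23 genes, with 2 higher and 0 lower at an unadjusted p under 0.05. Of 30 members, 7 were not tested because their counts were too low, IFNB1, CXCL10 and MX1 among them. ADAR, which edits double-stranded RNA, had -0.04 and the adaptor MAVS 0.07, both with overlap. Genes of RNA surveillance and decay had a median of 0.02 over 35 genes, with 4 higher and 0 lower at this p, among them PAN2 at 0.29, UPF3A at 0.42 and UPF3B at 0.22. CNOT1 and DIS3, the most abundant, had -0.08 and -0.03. Targets of ATF4, the factor of the integrated stress response, had a median of -0.07 over 20 genes, with 2 higher and 2 lower. ATF4 had -0.14 and PHGDH, of serine synthesis, -0.17, both with overlap.

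Genes of growth and genome upkeep gave small medians of either sign. Of all tested genes, 4.12% were higher and 4.83% lower at an unadjusted p under 0.05. Without both replicate 2 libraries the median turned to -0.009 for growth arrest and apoptosis genes and to 0.03 for the DNA damage list. Growth arrest and apoptosis genes had 0.01 over 25 genes, with 0 higher and 1 lower at an unadjusted p under 0.05, and MDM2, the most abundant, had 0.01. Genes of the DNA damage response and excision repair had -0.007 over 28 genes, with 2 higher and 1 lower. The lower gene was DDB1, of the UV damage sensor, which gave 642.5, 660.6 and 593.2 CPM with CEP and 523.5, 509.7 and 544.8 CPM with both, without overlap, at -0.27 (unadjusted p = 0.000612 by edgeR). PCNA, the clamp of replication, had 0.05. Cyclins and mitosis genes had -0.05 over 24 genes, with 0 higher and 2 lower, CCND1 at -0.35 and CCNB1 at -0.15, while TOP2A and MYBL2 had -0.06 and -0.05. Heat shock chaperones had -0.004 over 17 genes, with 2 higher and 1 lower. HSP90AA1 and HSP90AB1 had -0.07 and -0.14, and the stress-induced HSPA1A had 0.68 with overlap, although reads of HSPA1A and its near copy HSPA1B, at 0.29, can be shared.

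Lists of genes that act on RNA and nucleotides had medians from -0.02 to 0.07. Here too, counts at an unadjusted p under 0.05 stand beside 4.12% higher and 4.83% lower of all tested genes. Splicing regulators of the SR and hnRNP families had a median of -0.02 over 36 genes, with 2 higher and 3 lower at an unadjusted p under 0.05. HNRNPA1 gave 2013, 1861 and 2038 CPM with CEP and 1605, 1719 and 1622 CPM with both, without overlap, at -0.26 (SE 0.06, unadjusted p = 0.000519 by edgeR), and HNRNPA2B1 had -0.11 with overlap. Uridine uptake and pyrimidine metabolism, the route by which 4SU enters and is phosphorylated, had -0.01 over 25 genes, with 0 higher and 1 lower, the ribonucleotide reductase subunit RRM2 at -0.26. RRM1 and CTPS1, the most abundant, had -0.14 and 0.08. P-TEFb and elongation genes had 0.02 over 23 genes, with 0 higher and 1 lower, CDK9 at -0.21, and POLR2A and AFF4 had 0.01 and 0.006. The 9 proteins whose RNA binding the study followed had a median of 0.07, with UIMC1 higher at 0.17 and EXOC4 lower at -0.23 at this p, and DDX3X and DDX17, both RNA helicases, at 0.04 and 0.09. The medians of the SR and hnRNP, pyrimidine, heat shock and DNA damage lists were at or under 0.03 in size and turned positive with library size alone in place of TMM, a scaling that moved the median of all genes by 0.03.

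Mitochondrial mRNAs, which are made by their own polymerase, had a median of 0.09 over 13 genes, with 12 above 0 and 0 at an unadjusted p under 0.05. MT-CO1 gave 3230, 3402 and 2358 CPM with CEP and 2626, 3029 and 3632 CPM with both, with overlap. For 4SU alone the median was -0.17 and all 13 genes were below 0. The interaction had an unadjusted p under 0.05 for MT-CO3 and MT-ATP6, beside 2.63% of all tested genes, and passed for 0 genes. Mitochondrial genes took 0.967% to 1.26% of counts with CEP and 1.16% to 1.40% with both.

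**Figure D4:**
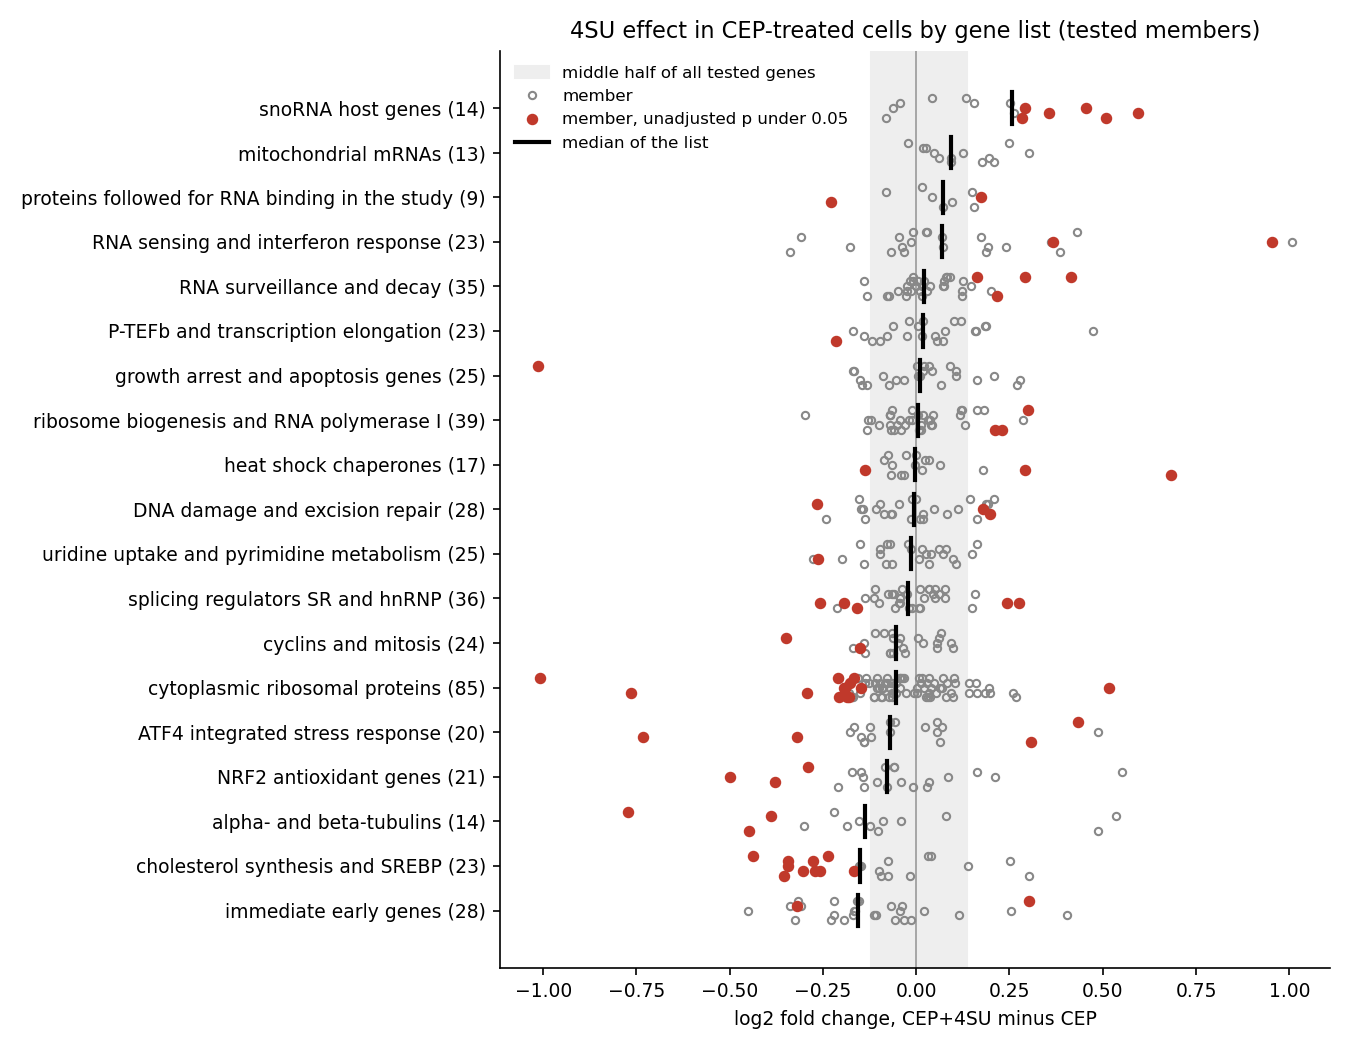
Each circle is the log2 fold change (CEP+4SU minus CEP, x axis) of a tested member of 1 of 19 gene lists (rows, with the number tested), filled red at an unadjusted p under 0.05, with black bars for list medians and a grey band for the middle 50% of all tested genes. The median is -0.16 for immediate early genes and 0.26 for snoRNA host genes (0.09 without both replicate 2 libraries, a fit not drawn), and the filled points of the cholesterol list all lie below 0.

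Classes of the annotation were compared by their medians. The median log2 fold change was 0.19 over 850 lincRNAs, 0.13 over 1094 antisense RNAs and 0.13 over 180 processed transcripts, against -0.01 over 13975 protein-coding genes and -0.01 over 578 processed pseudogenes. Of the lincRNAs 64 were higher and 11 lower at an unadjusted p under 0.05, and of the antisense RNAs 69 and 19, beside 4.12% and 4.83% of all tested genes. The protein-coding genes had 492 higher and 766 lower, and the processed pseudogenes 19 and 41. Within the band of 1 to 5 CPM the median was 0.22 for 306 lincRNAs, 0.12 for 406 antisense RNAs and 0.02 for 1804 protein-coding genes. Among the 418 lincRNAs with a mean of at least 1 CPM, the median gene lay at -0.10 to -0.05 log2 CPM in the 3 CEP libraries and at 0.06 to 0.15 in the 3 CEP+4SU libraries, relative to its mean over the 6. For these lincRNAs the median was 0.20, and it was 0.19 with the GC trend removed, 0.16 without both replicate 2 libraries and 0.09 for 4SU alone. The library kit marked strand, but whether the counting used it is not stated, so for an antisense RNA reads of its partner cannot be told apart.

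The libraries differed within the groups, and in some sums of marker genes also between the groups. Counts per library summed to 17104731 to 21367819 with CEP and 18402617 to 20673502 with both. CEP replicate 2 and CEP+4SU replicate 2 had counts on 22230 and 22627 genes, and the other 4 libraries on 24376 to 25083. The 8 markers of HEK293T cells were above 1 CPM in every library and summed to 758 to 784 CPM with CEP and 749 to 771 CPM with both. Of markers of other cell types, 3 of 7 for melanoma, 1 of 6 for blood, 3 of 5 for fibroblasts and 2 of 4 for epithelium were above 1 CPM. Summed, the fibroblast markers gave 41.4 to 43.9 CPM with CEP and 34.8 to 41.3 CPM with both, and the epithelial markers 18.6 to 22.2 and 15.5 to 17.3 CPM. Both sums were lower in every CEP+4SU library than in every CEP library, as were 6.05% of all tested genes. For the fibroblast sum this was close to a tie, at 41.33 against 41.37 CPM. COL1A1, its most abundant marker, gave 36.4, 36.1 and 33.5 CPM with CEP and 30.9, 28.7 and 34.9 CPM with both, with overlap. The melanoma markers gave 30.9 to 40.3 and 31.2 to 34.0 CPM and the blood markers 1.77 to 5.27 and 4.65 to 5.57 CPM, with overlap. TYR, CD3E, HBG1 and HBB were at 0 in every library. The part of these differences in the results was not tested. In bulk RNA, fewer cells of a kind and less RNA per cell cannot be told apart.

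Within both groups, levels followed the GC content of genes in opposite directions between libraries. For the decile of genes with the highest GC content, the median level relative to the mean of the 6 libraries was 0.25 log2 CPM in CEP replicate 1, -0.17 in CEP replicate 2 and -0.06 in CEP replicate 3. It was 0.20, -0.25 and 0.09 in CEP+4SU replicates 1, 2 and 3. For the decile with the lowest GC content the order was turned, from -0.11 in replicate 1 to 0.17 in replicate 2 of CEP+4SU. Between the groups, the log2 fold change had a Spearman rho of 0.02 with GC content over 17718 genes, against -0.27 for 4SU alone.

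**Figure D5:**
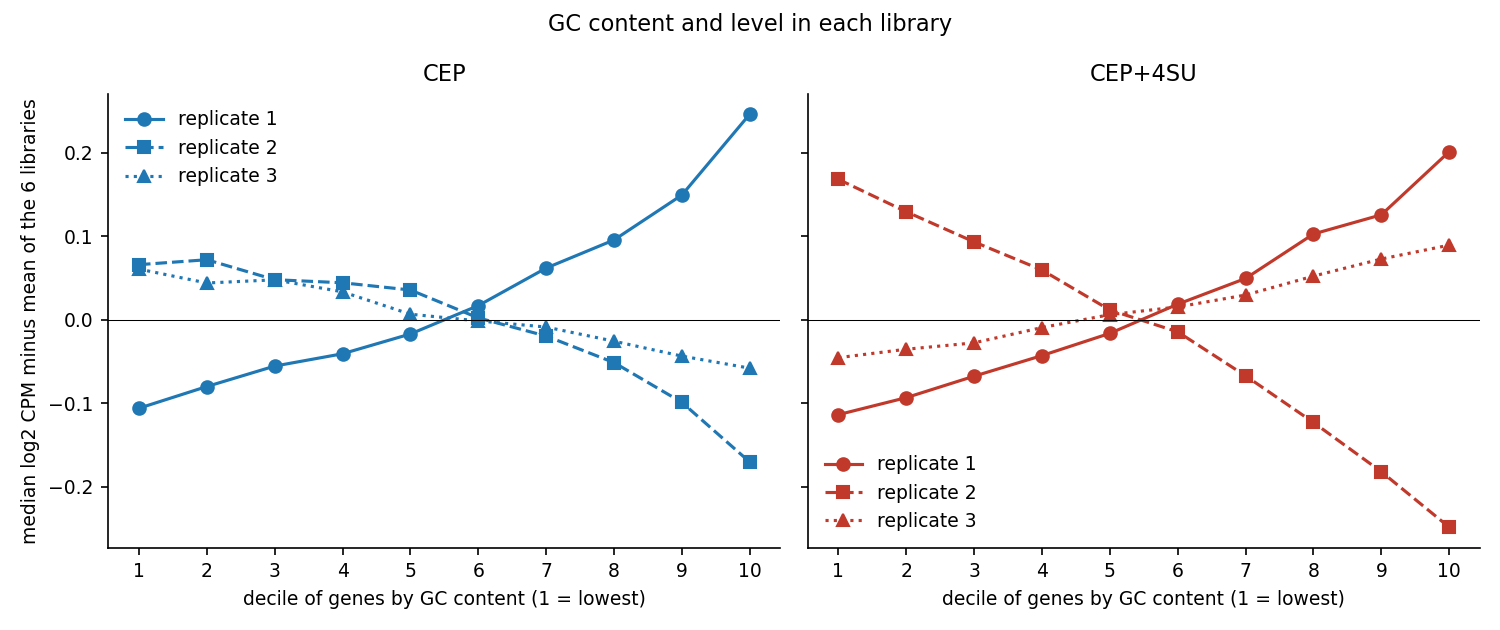
Median log2 CPM of genes relative to their mean over the 6 libraries (y axis) by decile of gene GC content (x axis, 1 lowest) in the 3 CEP (left) and the 3 CEP+4SU (right) libraries. Replicate 1 of both groups climbs to 0.25 and 0.20 in the highest decile, and replicate 2 descends to -0.17 and -0.25.

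With the trend of each library on GC content removed by an offset, 204 of 17718 genes (1.15%) passed the threshold by edgeR, 59 higher (0.333%) and 145 lower (0.818%). The p-values do not include the error of the offset. All 24 genes named above for their p passed in this fit, with RPL22L1 at -0.99 (adjusted p = 0.000204) and HMOX1 at -0.51 (adjusted p = 0.00154). Of the 204 genes, 192 had the same sign for 4SU alone, beside 62.2% of all genes in that fit. The same sign and an unadjusted p under 0.05 there were found for 133 of the 204. In that fit 9.05% of all genes had such a p. DESeq2, without any removal, called 75 of 14281 genes with an adjusted p (0.525%), 20 higher (0.14%) and 55 lower (0.385%), among them 22 of the 24 genes, all but SMIM11A and TCAF1P1. The 24 genes were picked for their p on these same counts, so their passing in either fit adds no evidence.

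The lists gave the following calls in the GC fit, beside 0.333% higher and 0.818% lower of all genes. Cholesterol genes had 0 higher and 5 lower (IDI1, FDFT1, SQLE, INSIG1 and SREBF2), NRF2 targets 0 higher and 3 lower (HMOX1 and TALDO1 among them), and ribosomal proteins 0 higher and 2 lower (RPL22L1 and RPL4). The snoRNA host genes had 2 higher (GAS5 and SNHG1) and 0 lower. The SR and hnRNP list had HNRNPDL higher and HNRNPA1 lower. DDB1, TUBA1A, CCND1 and RRM2 were called lower and NOP16 and HSPA1B higher, each as the only call of its list, and the other 8 lists had 0 calls. Without both replicate 2 libraries 9 genes passed, of which RPL22L1 and HNRNPA1 were on a list.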

How the data were processed

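HEK293T RNA-Seq tables of 12 libraries in 4 groups of 3 were analysed, grouped by the sample labels. Per their methods, the authors cleaned the reads, aligned them to GRCh38 with HISAT2 2.0.5 and counted fragments per gene with featureCounts 1.5.0-p3 (versions from the submitters' processing notes). The resulting counts were deposited as whole numbers. FPKM values were deposited by the authors on a linear scale, from these counts and gene lengths. A table of gene annotation came with them. Library totals were 16569114 to 24644734.

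Genes were filtered with filterByExpr (minimum count 10, minimum total 15), normalized with TMM and fitted in 1 quasi-likelihood model in edgeR 4.0.16 (R 4.3.3), all 12 libraries, with 8 residual degrees of freedom, common coefficient of variation 0.114, and prior counts of 0.125 for fold changes and 2 for log2 CPM. Contrasts were CEP+4SU minus CEP, 4SU minus DMSO and their difference. DESeq2 1.42.0, the tool of the paper's methods, and limma 3.58.1 on log2(FPKM + 1) or log2(FPKM + 0.1) were alternatives, as were other scalings, filters and thresholds, removal of each library's lowess trend (span 0.3) on GC content or length, and libraries left out. GC content came from GENCODE 29 transcripts on GRCh38. Fits were tested on simulated data.

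Named genes were the 12 higher and 12 lower genes of smallest p with a mean of at least 1 CPM, list members that passed (at most 4), and the 2 most abundant members of each list; 6 list entries were found under an older symbol. Some genes that the rule selects are not reported here, and the counts include them. Groups, lists and rule were chosen with earlier results of these data known. No replicate columns were identical, and replicate pairs differed by chi-square per degree of freedom of 4.04 to 17.9. This value was 12.2 to 17.0 with CEP, 4.44 to 17.9 with both, 4.16 to 6.96 in DMSO and 4.04 to 7.98 with 4SU alone.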

Additional observations from a re-analysis of the deposited data

How the results depend on the processing

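RPL22L1 apart, the number of genes past the threshold depended on the fit. For 4SU in CEP-treated cells the 1 gene became 75 with DESeq2, 102 without a low-count filter, 0 by limma on log2(FPKM + 1), 5 with the replicate block, 204 with the GC trend removed, 4 with the length trend removed, 9 without both replicate 2 libraries and 1047 at a threshold of 0.5. Leaving out single libraries gave 1 to 6. When only the 6 libraries of this comparison were fitted, 1 gene passed, RPL22L1 (adjusted p = 0.0372 by edgeR). Each of the other genes named for their p had an adjusted p of 0.771 in that fit. For 4SU alone the 1 gene became 21 with DESeq2, 0 with upper-quartile factors or library size, 41 without a filter, 0 by limma with either pseudocount, 8 with the replicate block, 15 with the GC trend removed, 25 without both replicate 2 libraries with CEP, 19 at 0.5, 94 when only its 6 libraries were fitted and 0 at a log2 fold change of at least 1. Leaving out any library of that comparison gave 0 to 0. The interaction, at 0 genes, gave 15 without a filter, 2 without both replicate 2 libraries, and 0 to 1 with single libraries left out (1 without CEP replicate 2 and 1 without CEP+4SU replicate 3). The cause was not tested.

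Replicate numbers are not stated to pair libraries. No shared day or batch is given, so the pairing stayed out of the model and a replicate block was an alternative. The correlation of deviations over all tested genes between same-numbered CEP and CEP+4SU libraries was 0.14, 0.09 and -0.05. These values do not show that pairing is absent. For the decile with the highest GC content, replicate 1 lay at 0.25 and 0.20 in CEP and CEP+4SU, and replicate 2 at -0.17 and -0.25. With the replicate block, 0 genes were higher and 5 lower, among them RPL22L1, UCP2, LRBA and HMOX1. Over the 24 named genes and 15 fits each, 301 of 360 values kept their side of the threshold and their sign, 58 passed only in the alternative, 1 passed only in the reported fit and 0 changed sign. Genes under 1 CPM had a median standard error of 0.64 on the log2 scale, against 0.09 at 50 CPM or more, which limits what this depth can show for the former.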

Other observations

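Another pair of near copies with large differences was MAGED4 and MAGED4B, neighbours on the X chromosome whose reads can be shared, chosen here after their values were seen. Their sum was 2.50, 0.943 and 7.21 CPM with CEP and 29.9, 5.18 and 21.3 CPM with both compounds, and 1.41 to 1.87 CPM in the DMSO libraries. In the libraries with 4SU alone it was 8.37, 7.19 and 5.27 CPM, all above the DMSO libraries. The CEP and CEP+4SU groups overlapped, since CEP+4SU replicate 2 lay below CEP replicate 3. The annotated gene that took most of these counts differed between libraries, with 408 counts on MAGED4B and 149 on MAGED4 in CEP+4SU replicate 1 and 72 and 353 in CEP+4SU replicate 3. MAGED4B alone had a fitted log2 fold change of 3.80 (adjusted p = 0.160 by edgeR).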
